A study of Arabidopsis thaliana with 23 samples.

Results

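Of 7914 H3K27me3 domains called in wild-type Arabidopsis thaliana flowers, 378 contained the summit of at least 1 REF6 peak, and these are the domains described here. A domain was included where the summit of a REF6-GFP peak with DSG lay between its edges. The domains were thus chosen by the called positions of REF6-GFP and of wild-type H3K27me3, and both are given below as description. REF6-GFP was precipitated through its tag, with the protein crosslinker DSG, from REF6-GFP ref6-3 plants (3 samples). H3K27me3 was precipitated from elf6-3ref6Cjmj13G plants, the triple mutant of the demethylase genes ELF6, REF6 and JMJ13 (2 samples), and from the wild type (2 samples). Also used here were REF6-GFP without DSG in REF6-GFP ref6-3 plants (3 samples) and REF6-ZnF-GFP, a construct named for the zinc fingers, with DSG, driven by the REF6p promoter, in the triple mutant (2 samples). All plants were of the Col0 background, 5 weeks old, and unopened flowers were taken. Every list is a single call on pooled samples. Replicate spread can therefore not be given, no difference between genotypes has a replicate check, and no p-value is printed. The Wilson 95% intervals cover counting error and treat domains, edges and summits as independent, although both edges of a domain, and neighbours joined by the same triple mutant domain, are not. Sequencing depth was not used here and can shift where a domain is called to end.

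H3K27me3 is laid down by Polycomb repressive complex 2 over genes that are kept silent, and in plants it spreads over the body of a gene. REF6, ELF6 and JMJ13 are Jumonji-type enzymes that remove it. REF6 reaches its sites through zinc fingers that read DNA directly. A domain that carries the mark in the wild type while REF6 is bound inside it is therefore a place where the writer's product and an eraser were both detected. These were whole flowers, and the mark and REF6 came from different plants, so the mark and REF6 in the same cells cannot be told apart from each in different cells.

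The 378 domains were spread over all 5 chromosomes, from 3.46% of the wild-type domains on chromosome 2 to 5.55% on chromosome 4. They covered 1.52 Mb. A single summit lay in 361 of them, 2 summits lay in 16, and 3 summits lay in 1, the domain over AT1G10380 and AT1G10385 (chromosome 1, 3400581 to 3406640, TAIR10). The domains were wide, with a median of 2780 bp against 1686 bp for the other 7536 wild-type domains. A wide domain has more room for a summit, and members made up 2.33% of the domains of 164 to 680 bp and 8.53% of those of 3994 to 29327 bp. Their median −log10 q in the authors' wild-type list was 32.6, against 17.0 for the others, and 14 of them (3.704%) had a q above 0.05, against 7.83% of the others (background 7.63%).

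The REF6 peaks inside domains were mostly among the weaker ones of their list. The authors' fold enrichment of the 396 peaks with a summit inside ranged between 1.65 and 11.0 with a median of 3.21, against a median of 4.51 for the other 4997 peaks. When all peaks were put in 5 classes by fold, members' summits made up 13.4% of the lowest class (folds up to 2.93), 10.1% of the next, 8.42% of the middle one, 3.81% of the next and 0.927% of the highest (folds from 8.73 upward). A REF6-GFP peak without DSG, from samples that did not choose the domains, overlapped 252 of the 396 peaks, or 63.6% (58.8 to 68.2%), against 80.9% (79.8 to 82.0%) of the other peaks and a background of 79.6% over all 5393. In the lowest fold class the shares were 37.9% (30.4 to 46.0%) inside domains and 35.2% (32.2 to 38.3%) elsewhere, in the next 58.7% (49.3 to 67.5%) and 69.1% (66.2 to 72.0%), in the middle 90.1% (82.3 to 94.7%) and 94.9% (93.4 to 96.1%), and in both upper classes all peaks had a counterpart. On chromosomes 1 to 3, where most REF6-ZnF-GFP peaks of the triple mutant lie, such a peak overlapped 56.3% (49.9 to 62.4%) of the peaks inside domains, near the background of 54.7%. On chromosomes 4 and 5 it overlapped 26 of 156, or 16.7% (11.6 to 23.3%), against 11.7% (10.3 to 13.2%) of the other peaks there (background 12%). The background thus fell from 54.7% to 12% between these 2 sets of chromosomes. Whether the REF6-ZnF-GFP list is complete on chromosomes 4 and 5 was not tested, so nothing is concluded from its shares there.

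Of the summits inside domains, 218 (55.1%) lay under 500 bp from an edge, and 178 (44.9%) lay 500 bp or more inside. The median distance to the nearer edge was 405 bp, with quartiles of 131 and 1201 bp. Of the 396 summits, 135 (34.1%) lay under 200 bp from an edge, 83 at 200 to under 500 bp, 61 at 500 to under 1000 bp and 117 (29.5%) at 1000 bp or more. Relative to width the median was 0.207, where a uniform position gives 0.25, and 57.6% of summits (52.7 to 62.3%) lay within 0.25 of the width from either end. Per base of wild-type domain, 43.7 summits per Mb lay in the outer 200 bp, 22.0 at 200 to under 500 bp, 13.9 at 500 to under 1000 bp and 12.1 at 1000 bp or more. Just outside the edges the density was 43.3 per Mb within 200 bp, close to that just inside, and 82.4 per Mb at 500 to under 1000 bp. Within 50 bp of an edge, 35 summits inside had a median fold of 3.33 and 27 summits outside had 3.86, and a peak without DSG overlapped 71.4% and 70.4% of them.

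**Figure D1:**
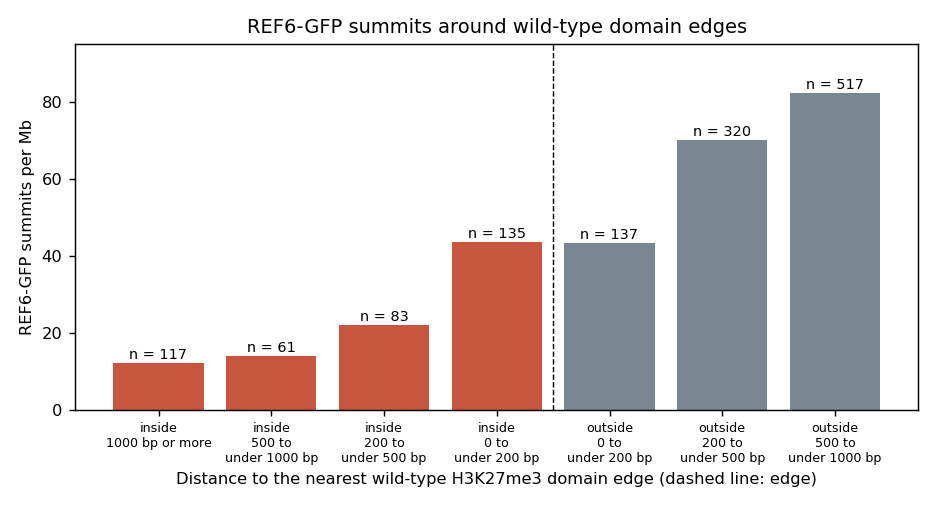
REF6-GFP summits per Mb of sequence (vertical axis) at each distance from the nearest wild-type H3K27me3 domain edge (horizontal axis; red inside domains, grey outside, dashed line the edge, n the number of summits). The density was 12.1 per Mb in domain interiors, 43.7 in the outer 200 bp and 82.4 at 500 to under 1000 bp outside.

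The deepest summits lay in very wide domains. The summit at AT5G23970 was 7309 bp from the nearer edge of a domain of 20243 bp (chromosome 5, 8089739 to 8109981), and that at AT4G18340 was 7007 bp inside a domain of 15563 bp (chromosome 4, 10121923 to 10137485). The summits at AT5G46000, AT1G64020 and AT5G24080 were 6673, 5815 and 5447 bp inside theirs. The median fold was 3.25 for summits at 1000 bp or more, close to the 3.29 of those under 200 bp. The widest member, 27139 bp on chromosome 5 (18283632 to 18310770), had its only summit 28 bp from an edge, in no gene.

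In the triple mutant nearly every one of these domains was still marked. A triple mutant domain touched 377 of the 378, or 99.7% (98.5 to 99.95%), against 87.7% (86.9 to 88.4%) of the other wild-type domains and a background of 88.3% over all 7914. Among wild-type domains with a −log10 q of at least 10 the shares were 100% of members and 99.7% of the others. The exception, 717 bp on chromosome 3 (2007253 to 2007969), had a −log10 q of 0.838 in the wild type. Triple mutant domains left 7.23% of the members' length uncovered, against 18.6% of the length of the other domains. In each of the 5 width classes less of the members' length was uncovered, from 0.221% against 41.8% in the narrowest class to 8.11% against 14.7% in the widest. Complete coverage was found for 175 members, or 46.3% (41.3 to 51.3%), against 21.7% (20.8 to 22.6%) of the others (background 22.9%). The others include 975 domains with a REF6 summit within 1 kb outside an edge and none inside, which were close to the members. Of these 975, 97.7% were touched and 46.5% (43.4 to 49.6%) were completely covered, and 8.92% of their length was uncovered. Under 50% of the length was covered in 4 members, or 1.06%, against 19.7% of the others (background 18.8%). These 4, named after their values were seen, were the chromosome 3 domain above, those at AT5G36260 and AT3G63020, and the one at NRT1:2, a nitrate transporter gene, with 48.5% of its 4151 bp covered. More than 1 triple mutant domain touched 46 members, or 12.2% (9.25 to 15.9%), against 8.21% (7.62 to 8.86%) of the others (background 8.4%). Members were wider than the others, and this share was not compared within width classes.

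The triple mutant domains also reached beyond the wild-type edges. Extension is the distance from a wild-type edge to the outer end of the triple mutant domains that touch the domain, and it is 0 where none reaches past the edge. Of the 378 members, 181 were extended on both sides, 138 on 1 side and 59 on neither, so 15.6% had no extension, against 47.7% of the other domains (background 46.1%). Among the 975 domains with a summit within 1 kb outside and none inside, 14.9% (12.8 to 17.2%) had no extension, close to the members. The median extension, both sides added, was 298.5 bp, with quartiles of 66.8 and 1557 bp and a maximum of 15289 bp. The other domains had a median of 9 bp and quartiles of 0 and 480 bp. The 2 sides were alike, with medians of 69 bp at the lower coordinate and 85 bp at the higher.

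An extension of 500 bp or more on at least 1 side was found for 149 members, or 39.4% (34.6 to 44.4%), against 23.8% (22.9 to 24.8%) of the other domains and a background of 24.6%. Among domains that a triple mutant domain touched, the shares were 39.5% (34.7 to 44.5%) for members and 27.2% (26.1 to 28.2%) for the others (background 27.8%). On both sides, 7.41% of members and 4.33% of the others reached 500 bp (background 4.47%). Members had the higher share in all 5 width classes, from 33.8% (23.9 to 45.4%) against 22.8% (20.7 to 24.96%) for 2201 to 3987 bp to 47.1% (35.9 to 58.7%) against 23.8% (21.8 to 26.1%) for 1297 to 2200 bp. The intervals were apart in the middle and the widest class and overlapped in the other 3. By chromosome the share of members varied between 30.9% (chromosome 1) and 53.2% (chromosome 2).

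**Figure D2:**
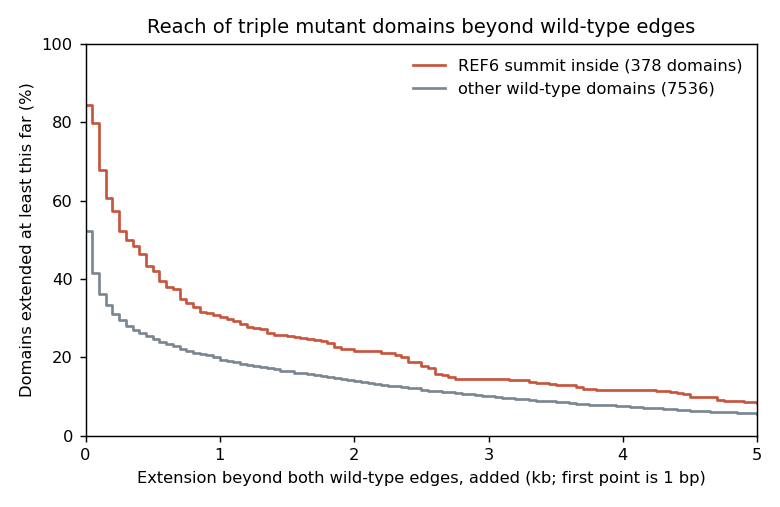
Share of domains (vertical axis, %) whose triple mutant domains reached at least the distance on the horizontal axis beyond the wild-type edges, both sides added (kb). The curve of the 378 domains with REF6 inside (red) lies above that of the other 7536 (grey) over the whole range shown, with medians of 298.5 and 9 bp.

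**Figure D3:**
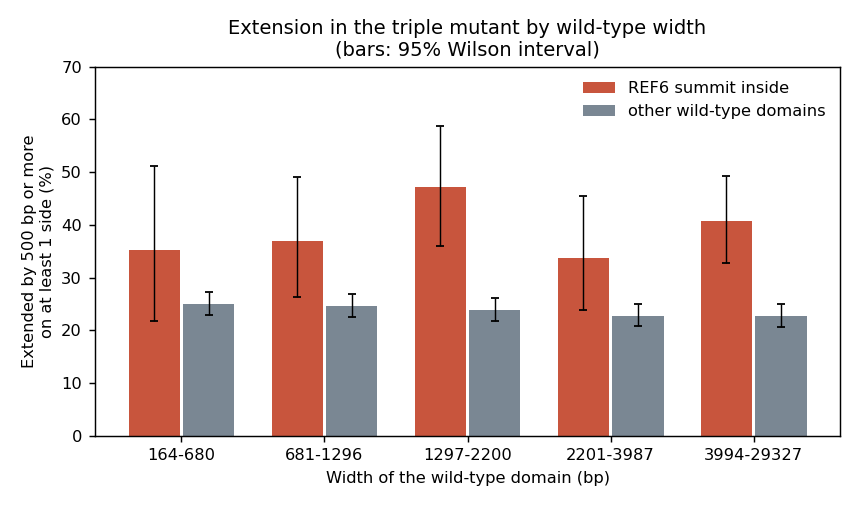
Share of domains extended by 500 bp or more on at least 1 side (vertical axis, %) in 5 classes of wild-type width (horizontal axis, bp), for domains with REF6 inside (red) and the other domains (grey), with 95% Wilson intervals. Members were higher in each class, and the intervals were apart in the middle class (47.1% and 23.8%) and the widest (40.7% and 22.8%).

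Added over the members, the extensions came to 540 kb, or 511 kb with each base counted once. Of these 511 kb, 365 kb was covered by triple mutant domains and by no wild-type domain, and the rest lay in neighbouring wild-type domains that a triple mutant domain had joined to the member. Such joining affected 65 members, or 17.2% (13.7 to 21.3%), against 10.6% (9.97 to 11.4%) of the other domains (background 11%). The 8 longest extensions were of this kind, but they are not 8 separate triple mutant domains. The members at AT4G28780 and AT4G28811 were extended by the same one. A 414 bp domain on chromosome 4 (7278775 to 7279188) was extended by 15289 bp, of which 5091 bp was new and 10198 bp lay in 2 other wild-type domains. One of these is the member at AT4G12210 and AT4G12220, also among the 8, and its new bases are the same 5091 bp. The 1260 bp domain at AT1G66110 (chromosome 1, 24609040 to 24610299), which held a summit with a fold of 9.80, was extended by 14951 bp on 1 side and 147 bp on the other, and 8444 bp of this was new. The domain of PKR2 (PICKLE RELATED 2, a relative of the chromatin remodeller PICKLE; AT4G31900) was extended by 9350 bp, of which 847 bp was new. A 9729 bp domain on chromosome 1 (7448605 to 7458333) had the longest extension without joining, 10684 bp, all on 1 side.

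The edge nearer to the summit moved farther more often than the other edge did. Among the 361 members with a single summit, the extension was longer on the nearer side in 199, or 55.1% (49.97 to 60.2%), longer on the farther side in 106, or 29.4% (24.9 to 34.3%), and equal in 56. The nearer side had a median extension of 142 bp and the farther side 21 bp. It reached 500 bp on the nearer side in 27.1% (22.8 to 32.0%) and on the farther side in 19.1% (15.4 to 23.5%), and these intervals overlap. Over all 396 summits the nearer side reached 500 bp for 33.3% (25.9 to 41.6%) of summits under 200 bp from it, 28.9% at 200 to under 500 bp, 27.9% at 500 to under 1000 bp and 21.4% (14.9 to 29.6%) at 1000 bp or more. Their farther sides reached it for 21.5%, 18.1%, 13.1% and 20.5%. The intervals of the nearer and the farther side overlapped in each of these 4 classes.

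REF6 summits also lay just outside some of these domains. Within 1 kb outside an edge, 60 members (15.9%, 12.5 to 19.9%) had a further summit, against 12.9% of the other domains (background 13.1%). Extension by 500 bp or more on at least 1 side was found in 61.7% (49.0 to 72.9%) of these 60 members and in 35.2% (30.2 to 40.6%) of the 318 members with summits inside alone. It was found in 61.9% (58.9 to 64.9%) of the 975 domains with a summit outside within 1 kb and none inside, and in 18.2% (17.2 to 19.1%) of the 6561 domains with neither. Domains with REF6 inside alone thus stood between those with REF6 outside and those with none, and their interval overlapped neither.

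At the limit of 500 bp, the same order was seen edge by edge. A summit inside within 1 kb of an edge, counted for its nearer edge, with none outside, marked 260 edges, of which 28.5% (23.3 to 34.2%) moved out by 500 bp or more. The share was 61.1% (38.6 to 79.7%) of 18 edges with summits on both sides of the edge, 55.9% (52.9 to 58.9%) of 1062 edges with a summit outside alone, and 11.2% (10.7 to 11.7%) of 14488 edges with neither, against a background of 14.5%. The median movement was 176 bp for a summit inside alone, 692.5 bp with summits on both sides, 721 bp for one outside alone and 0 bp for neither. Movement of any length followed another order. It was found at 89.6% of the edges with a summit inside alone, 83.3% of those with summits on both sides, 79.6% of those with one outside alone and 34.6% of those with neither. The 436 member edges counted under neither moved by 500 bp or more in 15.6% (12.5 to 19.3%). They include farther edges of narrow members, where the inside summit can also be under 1 kb away. Where an edge of a member had moved by 500 bp or more, the added stretch itself held a REF6 summit in 61 of 177 cases, or 34.5% (27.9 to 41.7%), against 49.7% (47.6 to 51.9%) for the other domains (background 48.6%). The other 116 member edges moved over sequence in which no REF6-GFP summit was called.

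**Figure D4:**
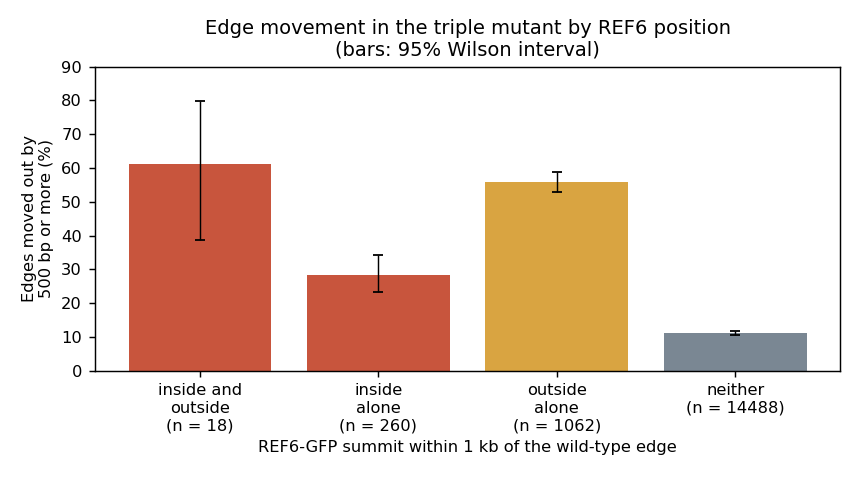
Share of wild-type domain edges that moved out by 500 bp or more in the triple mutant (vertical axis, %), by where REF6-GFP summits lay within 1 kb of the edge (horizontal axis; n is the number of edges), with 95% Wilson intervals. A summit inside is counted for its nearer edge only. Edges with a summit inside alone (28.5%) lie between those with a summit outside (55.9%) and those with neither (11.2%).

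In 3 classes of 126 members by their highest fold, 34.9% (27.2 to 43.6%), 38.1% (30.1 to 46.8%) and 45.2% (36.8 to 53.9%) were extended by 500 bp or more, from the lowest to the highest class, and these intervals overlap. Of the 10 members with the highest folds, 3 were extended by 500 bp or more on a side and 7 were not. The expansin gene EXPA14 (AT5G56320) had the highest fold, 11.0, at 3562 bp inside a domain of 10982 bp (chromosome 5, 22806054 to 22817035). This domain was not extended on either side and was 98.3% covered in the triple mutant. FAF1 (AT4G02810), a gene of the FAF family, which affects the size of the shoot meristem, had a fold of 10.3 and an extension of 131 bp. HLS1 (AT4G37580), which is needed for the hook of the seedling, had a fold of 9.69 at 44 bp from the edge. Its domain (chromosome 4, 17658804 to 17661580) was extended by 149 bp and covered over 60.9% of its length, so the called region was shorter in the triple mutant. TET3, a tetraspanin gene, had a fold of 9.15 and an extension of 52 bp.

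Most summits inside domains were also inside genes. The body of a protein-coding gene held 329 of the 396, or 83.1% (79.1 to 86.5%), near the background of 85.9% for all summits. They lay in 333 coding genes, 1.21% of all 27444, because some summits fell in more than 1 gene. Of these 333 genes, 305 were covered over at least 50% of their length in the triple mutant, or 91.6% (88.1 to 94.1%), and 262 in the wild type, or 78.7%. For all 8257 coding genes that a wild-type domain overlaps the background is 82.7% in the triple mutant and 78.8% in the wild type, so the wild-type share was near it. The 333 genes had median coverage of 95.6% in the triple mutant and 83.8% in the wild type. For the 7924 other genes that a wild-type domain overlaps the medians were 94.2% and 93.4%. Wild-type coverage was already 100% for 87 of the 333 and for 3363 of the 7924, so the other genes had less room for a gain. Coverage was higher in the triple mutant by more than 20 percentage points in 81 genes, or 24.3% (20.0 to 29.2%), against 13.8% (13.01 to 14.5%) of the 7924 other genes that a wild-type domain overlaps (background 14.2%). It was lower by more than 20 points in 6, or 1.80% (0.828 to 3.87%), against 10.2% (9.59 to 10.9%) of those other genes (background 9.89%). At least 50% in the triple mutant and under 50% in the wild type was found for 46 of the 333, or 13.8% (background 9.3%). These 46 are 64.8% (53.2 to 74.9%) of the 71 genes that were under 50% covered in the wild type. The share was 42.95% (40.6 to 45.3%) for the 1681 other genes that a wild-type domain touched and covered by less than 50% (background 43.8%). Median wild-type coverage was 32.5% for the 71 genes and 26.8% for the 1681, so the 71 started nearer to 50%.

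Examples among the 81 genes with higher coverage, named after their values were seen, were genes covered in part in the wild type. RABA3, a small GTPase gene of vesicle traffic, was covered over 91.0% in the triple mutant and 38.0% in the wild type. Its domain (chromosome 1, 85794 to 87217) held a summit with a fold of 6.77 at 122 bp from the edge and was extended by 1018 bp. A second REF6 summit lay within 1 kb outside that domain. ROXY1, a glutaredoxin gene of petal development, was covered over 100% in the triple mutant and 60.7% in the wild type. It shared 1 summit, fold 4.85, with ACR6, which was covered over 94.0% in the triple mutant and 17.9% in the wild type, and their domain (chromosome 3, 332589 to 336309) was extended by 2309 bp. A second REF6-GFP peak, at -3043 to -1997 bp from that summit, overlapped the added stretch. LOX5, a lipoxygenase gene, had 99.0% and 27.8% coverage in the triple mutant and the wild type, with an extension of 3761 bp that joined a neighbouring domain. TPPB, a trehalose phosphate phosphatase gene, had 76.8% coverage in the triple mutant and 12.4% in the wild type, and its wild-type domain had a −log10 q of 1.03. Among the 6 genes with lower coverage, BLH2, a homeodomain gene, was covered over 67.6% in the triple mutant and 94.2% in the wild type, and the transporter gene ABCG38 over 39.9% in the triple mutant and 67.1% in the wild type.

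**Figure D5:**
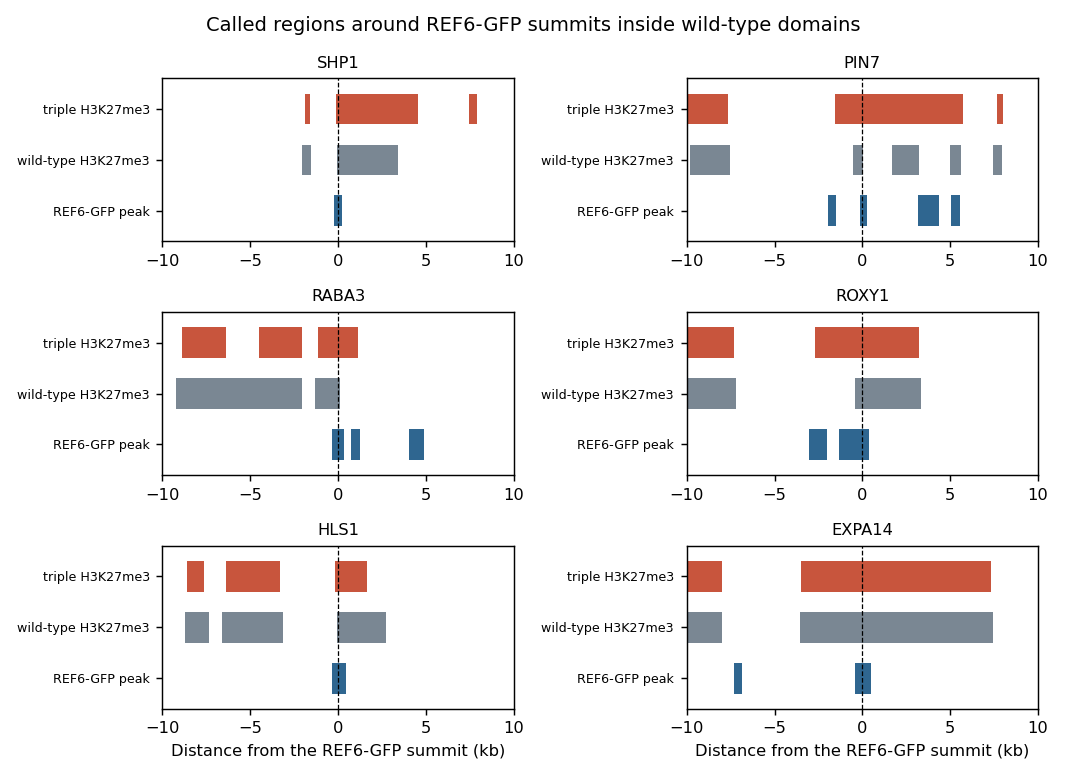
Called H3K27me3 domains of the triple mutant (red) and the wild type (grey) and REF6-GFP peaks with DSG (blue) at 6 genes, by distance from the summit inside the domain (horizontal axis, kb; dashed line the summit). Triple mutant domains reach farther at SHP1, PIN7, RABA3 and ROXY1 (extensions of 1149, 6689, 1018 and 2309 bp), about as far at EXPA14 (0 bp), and cover 60.9% of the wild-type domain at HLS1.

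Among members with several summits, KCS5, an enzyme gene of wax synthesis, lay in a domain with 2 summits that was extended by 126 bp. CYP81F4, a cytochrome P450 of indole glucosinolate synthesis, lay with 2 neighbours in one extended by 116 bp. EXL6 and the histone acetyltransferase gene MCC1 each held a summit (folds of 4.83 and 5.38) in a domain of 5541 bp (chromosome 3, 667291 to 672831), which was extended by 1584 and 1110 bp on its 2 sides. The domain of the cation exchanger gene CHX23 was extended by 2461 bp, and EXL6, MCC1 and CHX23 were covered over 100% in both genotypes.

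Most listed developmental regulators carried H3K27me3 in these flowers, and few lay in a member domain. Of 134 genes in 8 lists, 96 were covered over at least 50% in the wild type, a member domain touched 7 (5.22%, against a background of 2.37% of coding genes), and 5 of these held the summit in their body. Among the 111 list genes that any wild-type domain overlaps the share was 6.31% (3.09 to 12.4%), near the 7.88% of all coding genes so overlapped. A REF6-GFP summit of any kind lay in the body of 19 list genes, or 14.2% (9.27 to 21.1%), near the background of 16.2%, and in 14 of them it lay outside wild-type domains. No gene of the lists for flowering time, organ boundaries and meristem, gibberellin oxidases, seed maturation or anthers was touched.

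The list of auxin synthesis and transport had the most, 4 of 20, of which 3 are described. PIN7 encodes an efflux carrier of auxin, and YUC1 and YUC8 encode flavin monooxygenases that make it. PIN7 was covered over 51.5% in the triple mutant and 16.7% in the wild type. Its wild-type domain was 579 bp (chromosome 1, 8182871 to 8183449) with a summit 35 bp from the edge. A triple mutant domain extended it by 1002 bp on 1 side and 5687 bp on the other, joining 2 further wild-type domains. The longer stretch held further REF6-GFP peaks, at 3167 to 4376 bp and 5019 to 5577 bp from the PIN7 summit. One of the joined domains, at AST91, is itself a member. YUC8 was covered over 100% in the triple mutant and 84.1% in the wild type, with an extension of 1502 bp. YUC1 was covered over 100% in both with an extension of 16 bp. The REF6 folds at these 3 were low, 3.27 at PIN7, 3.03 at YUC8 and 2.74 at YUC1, and a REF6-GFP peak without DSG overlapped none of the 3 peaks.

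Among 19 genes that set the identity of floral organs or of the floral meristem, 2 were touched, the paralogues SHP1 and SHP2, MADS-box genes of the fruit valve margin and the ovule. SHP1 (AT3G58780) held a summit with a fold of 4.25 at 89 bp from the edge of its domain (chromosome 3, 21738124 to 21741636). The domain was extended by 48 bp on the summit's side and by 1101 bp on the other, and the gene was covered over 100% in the triple mutant and 79.8% in the wild type. In the SHP2 domain (chromosome 2, 17817495 to 17824639) the summit, with a fold of 7.24, lay outside the gene, 2412 bp from the edge. That domain was extended by 1792 and 3333 bp, while SHP2 was covered over 100% in both genotypes. KAN3, a gene of the KANADI family of abaxial identity, lay in a domain of 12002 bp with a summit outside the gene, no extension, and gene coverage of 66.9% in the triple mutant and 81.5% in the wild type.

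A few further genes outside the lists were named after their values were seen and stand for no group. KNU, a zinc finger gene that ends stem cell activity in the flower, SHI of the STYLISH family and the floral gene SAP were covered over 100% in both genotypes. The summit at KNU had a fold of 3.89 and lay 506 bp inside a domain of 1278 bp, which was extended by 88 bp. Those at SHI and SAP lay 3523 and 1998 bp inside domains extended by 425 and 0 bp. Of the 4 FAF genes, also chosen after their values were seen, FAF1, FAF2 and FAF3 held a summit inside a wild-type domain, and FAF4, which was covered over 100% in both genotypes, held none. FAF2 was covered over 38.9% in the triple mutant and 22.3% in the wild type, FAF1 over 71.8% in the triple mutant and 71.9% in the wild type, and FAF3 over 87.2% in the triple mutant and 100% in the wild type.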

How the data were processed

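Chromatin immunoprecipitation samples were grouped by their titles. MACS2 2.1.0, Bowtie 1.1.2, Picard 2.60, deepTools and the TAIR10 build are listed in the submitters' processing notes with no role or setting, and the control of each call and any peak filter are not given in the sources used here. No list has a header, columns were read in MACS2's order, and peak names hold the word pooled. The authors' fold enrichment is a linear ratio, and their −log10 q and summit offsets (base pairs from the peak's start) were used as deposited, fold and q within a list alone.

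Distances, extensions and coverage were computed with pandas 2.3.3, and these measures were tested on simulated data. Width and fold classes are 5 classes of nearly equal size. Gene names and overlaps came from a RefSeq table of TAIR10.1, whose nuclear chromosomes were taken as those of TAIR10, used without strand, and all 134 list genes matched. No test was run. Alternatives covered q limits, summit depth, REF6 list, overlap, joining of domains and extension limits. Named genes are those at the 10 members with the highest fold, longest extension, most summits or greatest width, the 5 deepest summits, and list genes that a member touches, of which 1 is not reported here; others are said to be named after their values were seen. Members, lists and limits were chosen with earlier results of these data known. Of 23 samples, 11 were not analysed here, and no sequence is used here.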

Additional observations from a re-analysis of the deposited data

How the results depend on the processing

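No paired analysis was possible because each list was called on pooled samples and carries no replicate, so no replicate could be left out either. Over every alternative run, members kept a higher median extension than the other domains (10 of 10), a higher share extended (12 of 12) and less uncovered length (9 of 9). The share touched was 98.1% of members against 66.3% of the others when triple mutant domains under a −log10 q of 10 were left out. It was 100% with that limit on wild-type domains, with a −log10 q limit of 20 on REF6 peaks, with summits at least 100 bp inside, without DSG, without domains of q above 0.05, and with summits shared with the list without DSG. With the wild-type limit of 10, the other domains were touched at 99.7%, so the difference in share touched nearly closed, the median extension was 192 bp and the median summit distance 594 bp. Summits at least 100 bp inside had a median distance of 590 bp. A limit of 200 bp gave 53.7% of members extended against 30.2% of the others, and 1000 bp gave 29.4% against 18.7%. With the REF6 limit of 20, 78.2% of peaks inside domains had a counterpart without DSG, against 92.1% of the others. Requiring that counterpart, an alternative chosen after seeing the data, left 245 members, of which 40.8% were extended by 500 bp or more. Joining domains across 500 bp could change nothing because the shortest gap was 657 bp. Counting only bases that no wild-type domain covered gave the same median extension and share extended by 500 bp or more. It could not differ there, because an extension that joins a neighbour crosses such a gap. Both are among the alternatives counted above for extension. The share of summits shared with the list without DSG was not computed where the summits came from that list or were required to be shared with it.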
